A study of Mus musculus with 4 samples.

Results

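The Rab family of small GTPases was followed in ribosome profiling of cultured mouse female germline stem cells (FGSCs). Members were the protein-coding genes of the deposited gene table whose symbol is Rab, a number and at most 1 further letter. This gave 58 of the 30694 genes listed, or 58 of the 16948 listed protein-coding genes. Of these, 18 also had an open reading frame (ORF) in the ORF table, with 1 ORF each among the 4669 listed. All 58 symbols matched a coding gene in RefSeq, and the naming rule used no measured value.

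There were 4 libraries. In the 2 shNC libraries the FGSCs carried a lentiviral control hairpin, and in the 2 shGm26917 libraries a lentiviral hairpin against the long noncoding RNA Gm26917. All cells came from a line labelled as ovarian germ stem cells, and all were treated with cycloheximide, which holds ribosomes in place, before lysis. The sources used here give neither the age of the source animals nor which hairpin against Gm26917 was used. The study states 2 biological replicates, and the labels do not say whether they were separate cultures, so p-values measure only the spread between these libraries.

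Rab proteins are molecular switches that bind membranes through a lipid tail when loaded with GTP and are pulled off again when they hold GDP. Exchange factors (GEFs) load GTP, activating proteins (GAPs) speed its hydrolysis, and effectors such as tethers and motors read the active form. Each Rab marks a step of vesicle traffic, so the family maps the route from the endoplasmic reticulum (ER) through the Golgi to the cell surface and back through endosomes to lysosomes.

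Values of 2 kinds were available. Translation efficiency (TE) is the ratio, per gene and library, of the normalised footprint value to the normalised RNA value. The genes with a blank TE were the same in both shGm26917 libraries, 5608 in each, against 8625 and 6286 in shNC replicates 1 and 2. Whether the 2 shGm26917 ratios share RNA values was not tested, so these 2 values may not be independent of each other. The ORF value is the number of footprint reads in an ORF divided by a size factor of its library. Where 4 values follow a gene name below, they are shNC replicate 1, shNC replicate 2, shGm26917 replicate 1 and shGm26917 replicate 2, in that order.

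The shGm26917 replicate 1 library stood apart from the others. In it, 92.0% of all ORFs were listed at 0, against 8.97 to 26.7% in the others. The ORFs listed above 0 held 157914 reads in it, against 1049143 to 1753036 in the other 3. That sum leaves out any reads in ORFs listed at 0, so it does not by itself measure depth. An ORF value of 2.25 stood for 1 read in it, against 0.756 to 1.17 in the others. Across the 10115 genes with a TE above 0 in every library, log2 TE correlated at 0.77 to 0.78 between that library and the others and at 0.92 to 0.94 among the other 3. The targeted gene, Gm26917, had TE values of 17.03, 23.83, 113 and 8.62, a ratio that does not measure its RNA level, so the knockdown could not be checked here. Of 10 germ cell markers looked for, 7 were listed, and Kit and Ifitm3 had a TE above 0 in every library. Zbtb16 was above 0 in all but shGm26917 replicate 1, Prdm1 in the shNC libraries only, and Nanos3 in shNC replicate 2 only. Ddx4 was at 0 in shNC replicate 2 and Pou5f1 at 0 in shNC replicate 1, and both were blank elsewhere. The paper reports both in its FGSCs by RT-PCR and immunofluorescence. The 1 germ cell marker with an ORF, Ifitm3, had ORF values of 1111, 797, 0 and 799. Of the 6 stromal markers, 5 were above 0 in every library. The annotated ORFs of the stromal list, 5 in all, had summed values of 3921, 4226, 677 and 2984. Of the 6 macrophage markers, 5 were above 0 in every library. Only 2 annotated ORFs were listed for the macrophage markers, with summed values of 1074, 772, 0 and 1436. The part of these markers in the Rab values was not tested.

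Most of the family had a measured TE. It was above 0 in all 4 libraries for 41 of the 58 genes (70.7%, against 57.1% of all protein-coding genes). A further 9 were listed at 0 in shGm26917 replicate 1 only: Rab3a, Rab3b, Rab4a, Rab11b, Rab15, Rab20, Rab29, Rab30 and Rab39b. These are 18% of the 50 Rab genes above 0 in the other 3 libraries, against 14.7% for protein-coding genes counted in the same way. The ratio was blank in at least 1 library for 5 (Rab3c, Rab9b, Rab17, Rab25 and Rab39), none of which was above 0 anywhere. The last 3 were Rab33a, listed at 0 throughout, Rab40b, above 0 in shGm26917 replicate 2 only, and Rab26. Rab17 and Rab25 are best known from epithelial cells, and Rab3c from neurons.

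**Figure D1:**
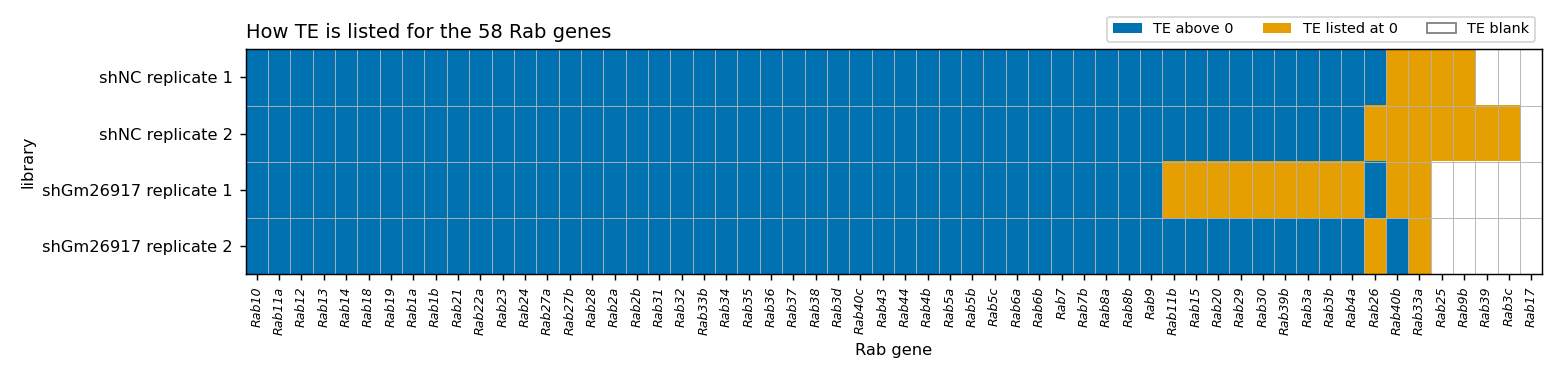
Each column is 1 of the 58 Rab genes and each row 1 library. Blue cells have a TE above 0, orange cells are listed at 0 and white cells are blank. The block of 9 orange cells lies in shGm26917 replicate 1, and 41 genes are blue in all 4 rows.

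TE differed widely within the family. Among the 41 genes above 0 in every library, the highest TE was 59.4, 103, 149 and 162 times the lowest. Rab5b was lowest in all 4 libraries. Rab4b was highest in 3 of 4, and Rab43 was highest in shGm26917 replicate 1. The median TE of the 41 genes was 0.836, 0.747, 1.02 and 0.943, against 0.985, 0.985, 0.973 and 0.995 for the 9672 protein-coding genes counted in the same way. A TE above 1 was reached by 18, 16, 21 and 18 of the 41. When the 41 genes were ordered by mean TE in shNC, 33 of the 40 pairs of neighbours overlapped in their 2 shNC values. The 7 neighbouring steps that did not overlap were Rab5b to Rab8b, Rab40c to Rab37, Rab5a to Rab8a, Rab23 to Rab13, Rab1a to Rab5c, Rab5c to Rab2b and Rab2b to Rab4b.

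No Rab gene was called as changed by TE. With limma on log2 TE, 0 of 41 Rab genes had an adjusted p under 0.05, against 0% of all 10115 genes tested, and the smallest adjusted p of a Rab gene was 0.965. The study's own threshold is looser, asking for a change of 1.5-fold and an unadjusted 5% level. It was reached by 1 of 41 Rab genes (2.44%), against 2.17% of all genes, and this gene was Rab43. The fold condition removed nothing, with 219 genes, Rab43 among them, past the unadjusted level with or without it. Both shGm26917 values lay above both shNC values for 10 of 41 (16.1% of all genes) and below them for 6 of 41 (14.8% of all genes). The log2 change was positive for 24 and negative for 17, with a median of 0.05, against 0.001 over all genes. A single gene tested by exact permutation of 2 against 2 libraries cannot go below p = 0.333, so no such test was run.

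**Figure D2:**
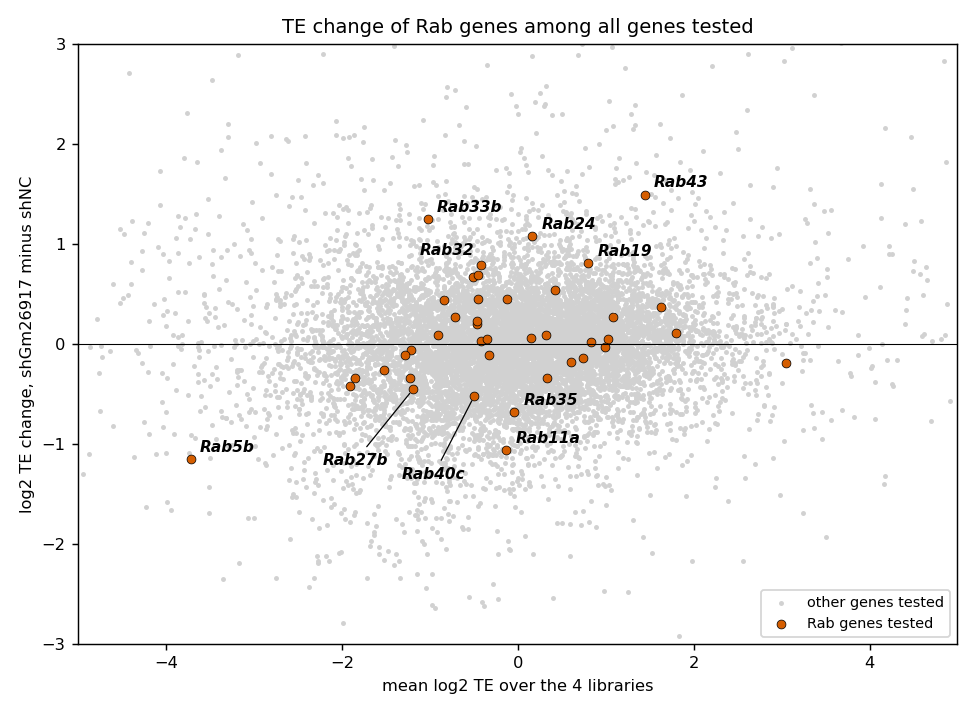
The horizontal axis is mean log2 TE over the 4 libraries and the vertical axis the log2 TE change, shGm26917 minus shNC. Grey points are other genes tested, orange points the 41 Rab genes, with the 5 largest changes each way named, and 177 genes lie outside the plotted range. Rab changes run from -1.15 (Rab5b) to 1.49 (Rab43), inside the cloud of all genes.

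The 2 shGm26917 libraries differed from each other among Rab genes about as much as among all genes. For 20 of the 41 genes the 2 shGm26917 values lay on opposite sides of the shNC mean. The value was at least 1.5-fold away from the shNC mean for 19 genes in shGm26917 replicate 1 and for 5 in shGm26917 replicate 2. These counts were made for Rab genes only, with no share over all genes to set beside them. The median absolute log2 difference between replicates was 0.18 for Rab genes in shNC and 0.63 in shGm26917, against 0.26 and 0.65 over all genes.

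**Figure D3:**
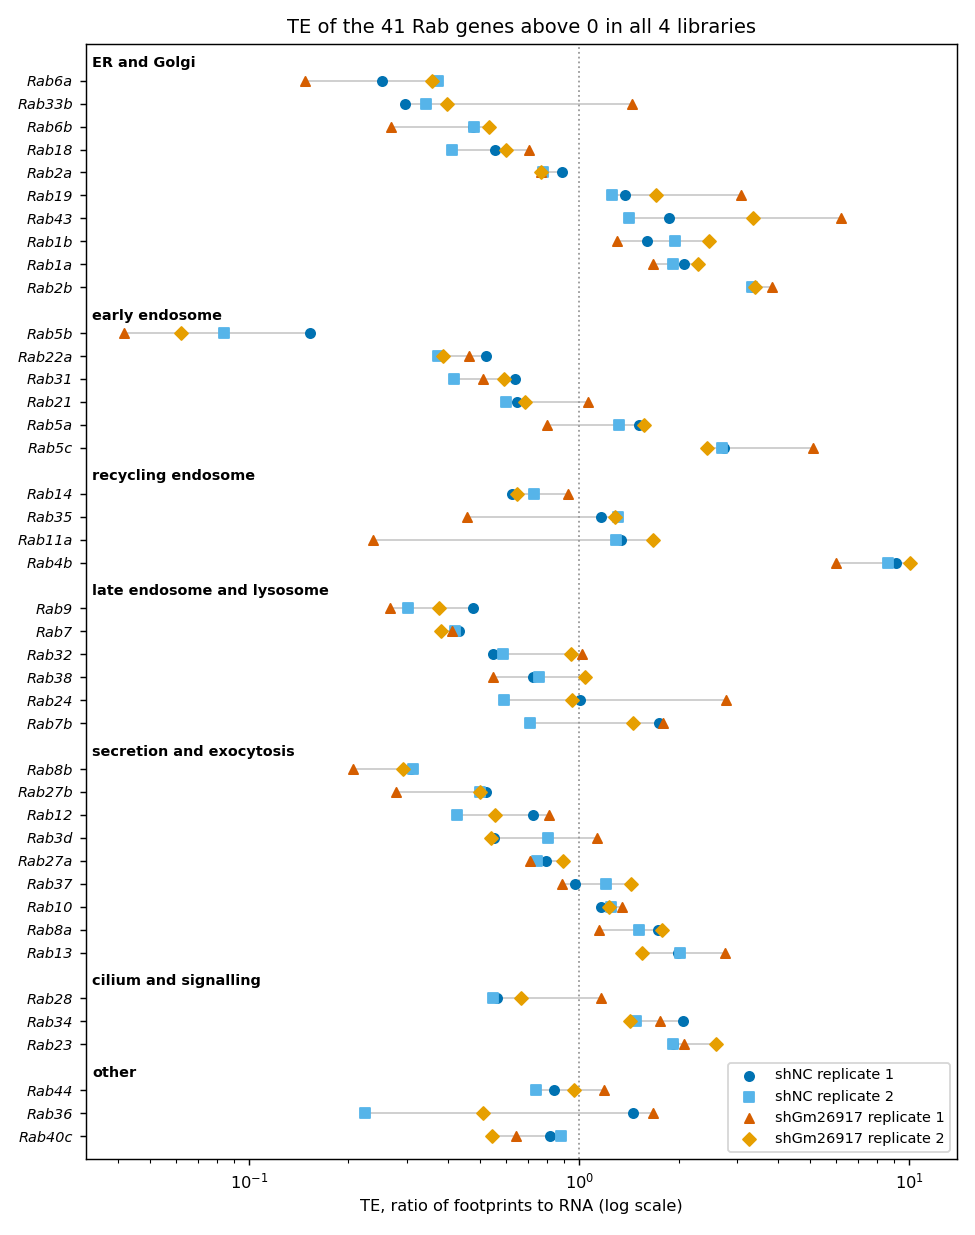
Each row is 1 of the 41 Rab genes with TE above 0 in all 4 libraries, grouped by the step of membrane traffic it is best known for. The horizontal axis is TE on a log scale, symbols mark the library, and the grey line spans the 4 values. Rab5b lies leftmost and Rab4b rightmost, and the long lines of Rab33b and Rab11a end in shGm26917 replicate 1.

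The ER and Golgi group held 14 members, of which 10 were tested. Of these 10, 5 had both shGm26917 values above both shNC values and 1 had both below, beside 16.1 and 14.8% of all genes. The log2 change was positive for 6 and negative for 4, with a median of 0.067, against 0.051 for the 41 Rab genes tested. The role groups were drawn up with earlier results of these data known. Rab43, a Golgi Rab on chromosome 6 (mm10, 87788853 to 87812164), had TE values of 1.87, 1.41, 6.23 and 3.35. Both knockdown libraries were above both controls, and the log2 change was 1.49 ± 0.43 (SE), with a limma adjusted p of 0.965. The same ratio as that of Rab43 stood at 38 other genes in shNC replicate 2 and at 21 others in shGm26917 replicate 2. Leaving out either shNC library took Rab43 off the study's threshold. Its gene overlaps the protein-coding Gm45140 on the same strand, which had no TE above 0.

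Rab33b, which acts at the Golgi and in autophagosome formation, had TE values of 0.296, 0.345, 1.45 and 0.398. The groups did not overlap, but shGm26917 replicate 2 was close to the controls and replicate 1 far above them (log2 change 1.25 ± 0.69, limma adjusted p = 0.965, and 0.32 without shGm26917 replicate 1). Rab19 gave 1.38, 1.26, 3.09 and 1.71, with both knockdown values higher (log2 change 0.80 ± 0.40). Rab2b and Rab2a, which act between ER and Golgi, were the steadiest of the group. Rab2b gave 3.34, 3.34, 3.84 and 3.41, the highest mean TE of the group. Rab2a gave 0.890, 0.775, 0.768 and 0.766, lower in both knockdown libraries by a small margin (log2 change -0.11 ± 0.31). Rab6a, the Golgi Rab of retrograde transport, had the lowest mean, with 0.253, 0.375, 0.148 and 0.357, and its shGm26917 replicate 2 value lay between the controls. Rab18, an ER and lipid droplet Rab, also had both knockdown values above the controls (log2 change 0.44 ± 0.36). Rab1a and Rab1b, which drive ER to Golgi transport, had mean TE values of 2.01 ± 0.11 and 1.78 ± 0.25 (SD, n = 2) in shNC and 1.99 ± 0.44 and 1.89 ± 0.83 in shGm26917, so their groups overlapped.

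All 6 early endosome members were tested, with 3 positive and 3 negative changes. Rab5b, one of the Rab5 proteins that run early endosome fusion, gave 0.153, 0.0837, 0.0418 and 0.0620. Both knockdown values lay below both controls, and the log2 change of -1.15 ± 0.60 was the most negative of the family (limma adjusted p = 0.965). With 0.1 added to every TE before the log, the change was -0.51. Rab5c gave 2.74, 2.72, 5.10 and 2.44, and was the highest of this group. Rab5a gave 1.51, 1.32, 0.799 and 1.57. In both genes shGm26917 replicate 2 was near the controls and replicate 1 was apart, in opposite directions. Rab21, which traffics integrins, gave 0.647, 0.60, 1.06 and 0.685, with both knockdown values above the controls (log2 change 0.45 ± 0.37).

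The recycling endosome group had 9 members, of which only 4 were tested, and none of these 4 had groups that did not overlap. Rab4b, a fast recycling Rab, gave 9.10, 8.63, 6.01 and 10.1, the highest mean TE among tested Rab genes. Its 2 knockdown values lay on either side of the controls. Rab11a, the marker of the recycling endosome, gave 1.34, 1.30, 0.238 and 1.68. The low value stood in shGm26917 replicate 1 alone, and the log2 change of -1.06 ± 0.96 turned to 0.35 without that library. In shGm26917 replicate 2, 52 other genes had the same ratio as Rab11a. Rab35, which recycles receptors and acts in cytokinesis, had the same pattern, with 1.16, 1.31, 0.456 and 1.29 (log2 change -0.69 ± 0.57, and 0.06 without shGm26917 replicate 1). Rab14, a Golgi to endosome Rab, had the lowest mean of the 4, with 0.626, 0.728, 0.924 and 0.649.

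Of the 9 late endosome and lysosome members, 6 were tested. Rab32, which serves lysosome-related organelles, gave 0.550, 0.588, 1.02 and 0.943. Both knockdown values were higher and close to each other, with a log2 change of 0.79 ± 0.31 (limma adjusted p = 0.965), and 0.73 without shGm26917 replicate 1. Without that library Rab32 and Rab43 were the 2 Rab genes at the study's threshold, again with none called. Rab24, linked to autophagy, gave 1.00, 0.594, 2.78 and 0.951. Its replicate 2 value lay between the controls (log2 change 1.07 ± 0.63). Rab7, the main Rab of late endosomes and lysosomes, varied little, with 0.433, 0.422, 0.413 and 0.381. Its paralogue Rab7b gave 1.75, 0.710, 1.80 and 1.46, the highest mean of the group. Rab38, the close relative of Rab32, gave 0.727, 0.757, 0.550 and 1.04, with knockdown values on both sides of the controls. Rab9, which returns cargo from late endosomes to the Golgi, was lowest, with 0.475, 0.303, 0.267 and 0.376. Rab20 and Rab29 could not be tested, with values of 4.50, 1.61, 0 and 1.09 and of 3.20, 3.57, 0 and 2.83. Both were listed at 0 in shGm26917 replicate 1, so only shGm26917 replicate 2 could be set beside the controls, and it was below both. No other of the 9 members at 0 only in that library had a shGm26917 replicate 2 value below both controls.

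The secretion and exocytosis group was the largest after the ER and Golgi group, with 9 of 13 members tested. The changes of these 9 ran from -0.45 to 0.27. Rab27b, which docks secretory vesicles and exosome-bearing bodies, gave 0.524, 0.501, 0.280 and 0.50. Its shGm26917 replicate 2 value was just below the controls (log2 change -0.45 ± 0.43, and -0.04 without shGm26917 replicate 1). Rab8b, which carries cargo to the plasma membrane, had the lowest mean, with 0.309, 0.314, 0.207 and 0.293, and was lower in both knockdown libraries. Rab8a gave 1.73, 1.52, 1.15 and 1.78. Rab10, an exocytic Rab of the glucose transporter route, gave 1.17, 1.25, 1.35 and 1.23. Rab13, a Rab of epithelial junctions, had the highest mean, with 1.99, 2.02, 2.77 and 1.55. None of Rab8a, Rab10 and Rab13 had groups that stood apart. Rab3a, the synaptic vesicle Rab, was outside the test, with 13.3, 29.7, 0 and 30.7, above every tested Rab gene in the 3 libraries where it was above 0. Its ratio in shNC replicate 2 stood at 27 other genes as well. Rab26, another vesicle Rab, gave 3.94, 0, 245 and 0, the single highest TE of any Rab gene beside 2 zeros, and 189 other genes shared its ratio in shNC replicate 1.

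The cilium and signalling group had 3 members, all tested. Rab23, a brake on Hedgehog signalling, gave 1.92, 1.93, 2.07 and 2.59, and Rab28, a cilium Rab, gave 0.563, 0.548, 1.17 and 0.665. Both were higher in each knockdown library, with log2 changes of 0.27 ± 0.30 and 0.67 ± 0.41. Among the remaining 4 members, Rab40c, whose protein joins a ubiquitin ligase, gave 0.816, 0.883, 0.642 and 0.545. It was lower in both knockdown libraries (log2 change -0.52 ± 0.32). Rab44, a large Rab with added domains, gave 0.836, 0.739, 1.19 and 0.964, higher in both. Rab36 gave 1.46, 0.225, 1.67 and 0.513, and its 2 shNC values already spanned most of its range. Rab40b was listed at 0, 0, 0 and 8.38, and 143 other genes had that same ratio.

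Exact repeats of a ratio among genes, as for Rab43, Rab11a, Rab3a, Rab26 and Rab40b, were found for 17.6, 20.0, 9.52 and 19.6% of the Rab genes above 0 in each library, against 25.3, 22.5, 14.1 and 20.5% of protein-coding genes. Over all genes, the most frequent ratio above 0 was 1.97, 4.94, 17.5 and 4.19, held by 297, 181, 54 and 192 genes. The gene table gives only the ratio, so the read depth under a TE value is not stated. Whether repeated ratios rest on few reads was not tested. Of the members, 24 overlap another listed gene, 18 of them on the opposite strand, and no source used here says whether counting used strand.

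The TE of same-numbered Rab genes was compared within each library. There were 14 pairs with both genes above 0 in at least 3 libraries. In 13 of them 1 gene was higher in every library where both were above 0. The first gene of a pair was the one with the higher shNC mean, and pairs within the Rab5 and Rab3 trios share genes. Log2 TE of all genes correlated at 0.77 to 0.94 between libraries, and the order within other gene pairs was not counted. Rab11a was 24.2 to 33.4 times Rab11b in the 3 libraries with both, and Rab4b was 10.02 to 17.7 times Rab4a. Rab8a was 4.85 to 6.07 times Rab8b in 4 of 4 libraries, the tightest ratio of the 14 pairs. Rab2b was 3.75 to 5.0 times Rab2a. In the Rab5 trio the order was Rab5c, Rab5a and Rab5b in all 4 libraries, with Rab5c at 17.9 to 122 times Rab5b, and this ratio was the widest-ranging. Rab3a was 4.33 to 8.04 times Rab3b, which was 5.13 to 8.51 times Rab3d. Rab7b over Rab7 ran from 1.68 to 4.36, Rab27a over Rab27b from 1.49 to 2.54, and Rab6b over Rab6a from 1.28 to 1.89. Rab1a over Rab1b ran from 0.928 to 1.30, the 1 pair with no fixed order. These ratios compare different genes within a library, and no source used here says how reads of near-identical paralogues were assigned. Processed pseudogenes of Rab7, Rab5a, Rab11b and Rab9b were listed as genes of their own.

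**Figure D4:**
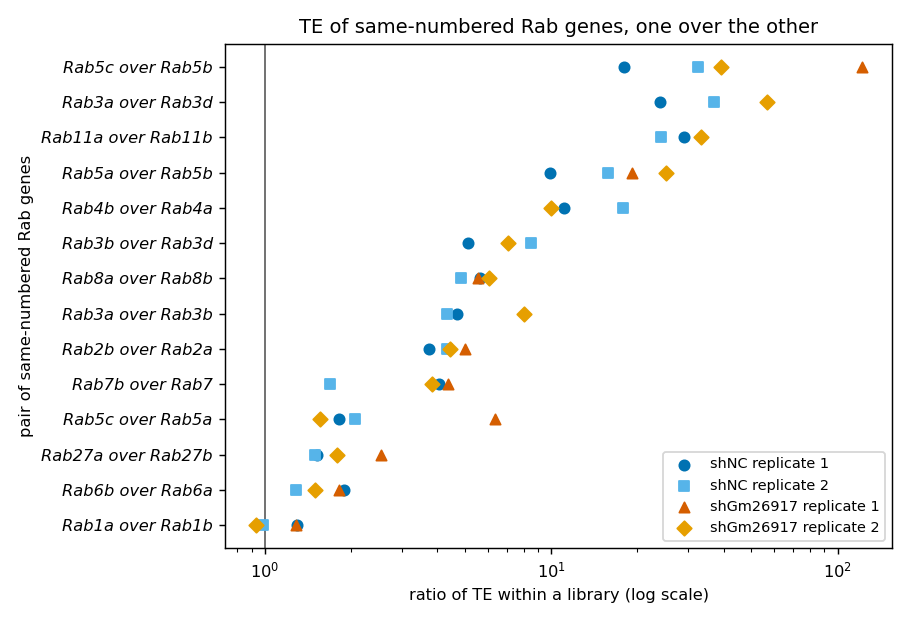
Each row is a pair of same-numbered Rab genes, and the horizontal axis is the TE of the first over that of the second within 1 library, on a log scale. Points right of the line at 1 have the first gene higher. Only Rab1a over Rab1b has points on both sides, and the 4 values of Rab8a over Rab8b lie closest together.

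The ORF table gave a direct view of footprints on 18 Rab proteins. All 18 ORFs were annotated coding sequences, of 200 to 973 codons, and all 18 were listed at 0 in shGm26917 replicate 1. A value above 0 was listed for 14 in shNC replicate 1, 13 in shNC replicate 2 and 17 in shGm26917 replicate 2. Of the 18 zeros in shGm26917 replicate 1, 17 were at genes whose TE was above 0 in the same library, and all 4 zeros in shNC replicate 1, all 5 in shNC replicate 2 and the 1 in shGm26917 replicate 2 (Rab44, TE 0.964) were too. In these cases a listed 0 stood beside a ratio above 0 for the same gene and library in the other table, and no fold against a listed 0 is given.

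Footprint density varied widely among listed Rab ORFs, from 0.00966 (Rab7) to 8.21 (Rab27b) reads per codon, both in shGm26917 replicate 2. The median was 1.03, 0.773 and 1.20 reads per codon in shNC replicates 1 and 2 and shGm26917 replicate 2, against 0.323, 0.276 and 0.319 for all annotated ORFs above 0. Rab ORFs had a median length of 213.5 codons, against 448 for annotated ORFs, and lengths were not matched. Only members with a called ORF enter these medians. Rab27b carried the most reads in each of these 3 libraries, on a coding sequence on chromosome 18 from 69996221 to 69985188 (mm10, minus strand). Its ORF values were 1335, 1329, 0 and 1352, from 1690, 1140, 0 and 1789 reads, or 7.75, 5.23, 0 and 8.21 reads per codon. The 3 listed values of Rab27b were nearly equal, while its TE of about 0.5 was below the family median in each of those libraries. Rab10 followed in the 2 libraries where it was above 0, with 734, 0, 0 and 1066, the last at 7.05 reads per codon. Across listed Rab ORFs the ORF value per codon and the TE of the gene had rank correlations of -0.12 (n = 14), 0.20 (n = 13) and -0.15 (n = 17) in these 3 libraries, given as a description over ORFs that share a library and its depth.

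**Figure D5:**
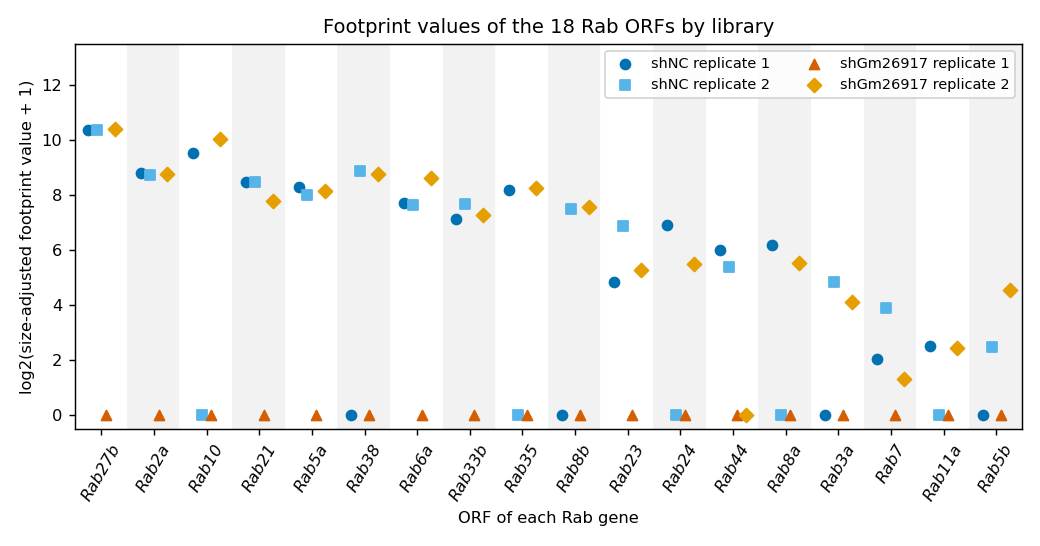
The vertical axis is log2 of the ORF value plus 1, and each position on the horizontal axis is the ORF of 1 Rab gene, ordered by shNC mean. Symbols mark the library. All triangles (shGm26917 replicate 1) lie at 0, and Rab27b has the highest values in the other 3 libraries.

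Of the 18 ORFs, 8 were at 0 in shGm26917 replicate 1 only (44.4%, against 48.8% of all ORFs). Among them the value in shGm26917 replicate 2 could be set beside both controls. Rab2a gave 449, 422, 0 and 432, Rab5a 316, 255, 0 and 281, and Rab33b 141, 206, 0 and 156. For these 3 and Rab27b, shGm26917 replicate 2 was 0.896 to 1.02 times the shNC mean. Rab6a gave 211, 199, 0 and 399, which is 1.95 times the shNC mean in shGm26917 replicate 2. Rab21 gave 359, 358, 0 and 221, or 0.618 times. Rab23 gave 27.6, 118, 0 and 37.8, or 0.520 times, with the knockdown value between the controls. Rab7 rested on few reads, 4, 12, 0 and 2, for values of 3.16, 13.99, 0 and 1.51, or 0.176 times. Over the 2575 ORFs listed in the same 3 libraries the ratio had a median of 0.975 and quartiles of 0.708 and 1.25, so Rab6a, Rab7, Rab21 and Rab23 lay outside the middle range and the first 4 ORFs inside it. These ratios have 1 knockdown library and no replicate.

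A further 9 ORFs were listed in 1 control library and in shGm26917 replicate 2. Those at 0 in shNC replicate 2 were Rab10, already given, Rab35 with 289, 0, 0 and 310, Rab24 with 122, 0, 0 and 44.6, Rab8a with 71.9, 0, 0 and 45.3, and Rab11a with 4.74, 0, 0 and 4.53. Those at 0 in shNC replicate 1 were Rab38 with 0, 472, 0 and 442, Rab8b with 0, 178, 0 and 188, Rab3a with 0, 28.0, 0 and 16.6, and Rab5b with 0, 4.66, 0 and 22.7. In Rab35, Rab38, Rab8b and Rab11a the 2 listed values were close to each other, though those of Rab11a rested on 6 reads each. Rab5b, the gene of lowest TE, also had few reads here, 4 in shNC replicate 2 and 30 in shGm26917 replicate 2.

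Rab44 was the one Rab ORF listed in both controls and in neither knockdown library, with 63.2, 40.8, 0 and 0 from 80, 35, 0 and 0 reads. Its TE was above both controls in each knockdown library, as given above. With limma on log2 of the ORF value plus 1, 0 of 18 Rab ORFs had an adjusted p under 0.05, against 0% of 4669 ORFs. At the study's threshold there was 1 of 18 (5.56%), against 7.37% of all ORFs, and this was Rab44 (limma adjusted p = 0.341), on zeros listed beside a TE above 0. Without shGm26917 replicate 1, Rab44 was no longer at the threshold and Rab6a, higher, and Rab21, lower, were. Both knockdown values were below both controls for 3 of 18, Rab7, Rab21 and Rab44, against 27.3% of all ORFs. Since all 18 were at 0 in shGm26917 replicate 1, this count rests on shGm26917 replicate 2 for ORFs above 0 in both controls. The 4 ORFs at 0 in shNC replicate 1 and the 5 at 0 in shNC replicate 2 could not count as below. The share over all ORFs includes ORFs of that kind too. On recovered reads, edgeR called 0 of the 15 Rab ORFs it kept, and DESeq2 called 0 of 18.

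The regulators of the family were read from fixed lists. Limma called 0 in each at an adjusted p under 0.05, as it did among all genes. Of the genes that prenylate and recycle Rab proteins, 6 of 7 were tested and 0 reached the study's threshold. Rabac1, a receptor for prenylated Rab proteins, gave TE values of 2.08, 2.02, 2.81 and 2.78, with both knockdown values higher and close together (log2 change 0.45 ± 0.28). Rabggta, a subunit of the transferase that adds the lipid tail, gave 2.14, 1.82, 2.46 and 2.20, and Chm, the escort protein that presents Rab proteins to it, gave 0.388, 0.447, 0.0917 and 0.417.

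Of 35 GEF genes tested, 1 was at the study's threshold, in the higher direction, where the share over all genes was 2.17%. This was Trappc4, a subunit of the TRAPP complexes that activate Rab1 and Rab11, with 0.724, 0.570, 1.62 and 1.21 (log2 change 1.12 ± 0.35, limma adjusted p = 0.965). Rabif gave 0.832, 0.503, 0.337 and 0.367, and Hps1, of the GEF for Rab32 and Rab38, gave 1.83, 1.89, 0.990 and 1.43. Both were lower in each knockdown library. Of 26 GAP genes tested, 1 was at the threshold, again beside 2.17% of all genes. This was Tbc1d2, a GAP for Rab7, with 0.784, 0.896, 0.0279 and 0.250 (log2 change -3.33 ± 1.09, limma adjusted p = 0.965). Tbc1d2 was lower in both knockdown libraries, more so in replicate 1. Tbc1d13, a GAP for Rab35, gave 0.441, 0.457, 0.928 and 0.584, and Sgsm3 gave 2.65, 1.37, 1.10 and 1.35.

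Of 25 effector genes tested, 0 were at the threshold. Plekhm1, which links Rab7 to lysosome fusion, gave 1.51, 1.33, 0.762 and 1.04, lower in both knockdown libraries. Golga2, a Golgi tether, gave 1.37, 1.56, 2.55 and 1.84, higher in both, and Gcc1, another Golgi coiled-coil protein, gave 1.62, 1.69, 0.273 and 1.54. Of 43 other small GTPase genes tested, 2 were at the threshold, both higher, beside 2.17% of all genes (132 higher and 87 lower of 10115). Rap1a, of the Ras family, gave 0.182, 0.152, 0.360 and 0.323 (log2 change 1.04 ± 0.39). Rac2, which is also on the macrophage marker list, gave 0.366, 0.383, 0.6748 and 0.6759 (log2 change 0.85 ± 0.32). Mras gave 0.243, 0.386, 0.156 and 0.175, lower in both knockdown libraries. The median log2 change was 0.13 for prenylation and recycling genes, -0.05 for GEFs, 0.03 for GAPs, -0.12 for effectors and 0.09 for the other small GTPases, beside 0.05 for the Rab genes.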

How the data were processed

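Per the labels, footprints protected from RNase I were sequenced, and the submitters' processing notes name mm10. ORFs were called by the authors with RiboCode, and no source used here names the aligner or counter. The deposited ORF values are a signal, reads divided by a library size factor, and 100% of values above 0 were whole multiples of 1 read within 0.01 reads. The deposited TE is a ratio formed by the authors from normalised footprint and RNA values. The authors' own fold changes and p-values were not used. TE was tested on log2 TE by limma (lmFit, then eBayes with a trend) for the 10115 genes above 0 in all 4 libraries, and ORF values on log2(value + 1) for ORFs over 1 in at least 2 libraries, with Benjamini-Hochberg adjustment over all features. Fold changes on that scale understate changes of low values. Alternatives were edgeR and DESeq2 on recovered reads, other scalings, filters and pseudocounts, a replicate block and leaving out each library. Same-numbered replicates did not deviate together (correlation -0.04 for TE and -0.09 for ORF values). Members and gene lists were chosen with earlier results of these data known. Values in all libraries are given for members with an ORF, the 5 largest TE changes each way, and the highest and lowest mean TE of each role group. The untested Rab20, Rab26, Rab29 and Rab40b are given besides, outside that rule. Other lists give the 3 smallest unadjusted p. Steps were tested on simulated data. The simulated TE spread was that between the 2 shNC libraries, and for ORFs shGm26917 replicate 1 was given the mean depth of the others. A library like shGm26917 replicate 1 was therefore not simulated. Versions were DESeq2 1.42.0, edgeR 4.0.16, limma 3.58.1 and R 4.3.3.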

Additional observations from a re-analysis of the deposited data

How the results depend on the processing

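The number of Rab genes called by TE stayed at 0 under every alternative but 1. Leaving out each library in turn gave 0 to 2 called Rab genes and 0 to 583 called genes in all, and the 2, Rab33b (log2 change 2.18, limma adjusted p = 0.0434) and Rab11a (-2.47, adjusted p = 0.0382), were called without shGm26917 replicate 2, which leaves shGm26917 replicate 1 as the lone knockdown library, assumed to vary like the controls. At the study's threshold the same settings gave 0 to 14 Rab genes and 71 to 3472 genes in all, and without shGm26917 replicate 2 the share was 34.1% of Rab genes and 34.3% of all genes. With a mean TE of at least 0.1 there were 2 Rab genes at the threshold, and with zeros included and 0.1 added there were 488 genes in all. The median log2 TE change of Rab genes ran from -0.086 to 0.15 when libraries were left out. Without shGm26917 replicate 1 the change of Rab11a was 0.35 and that of Rab35 0.063, so their ranges over left-out libraries were -2.47 to 0.35 and -1.43 to 0.063.

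For ORFs, leaving out libraries gave 0 to 7 called Rab ORFs, 0 to 1982 called ORFs, 1 to 8 Rab ORFs at the study's threshold and 257 to 2152 ORFs in all, the high ends again without shGm26917 replicate 2, when 42.5% of all ORFs were called and every Rab ORF of the lone knockdown library was a listed 0. DESeq2 called 3 ORFs, none a Rab. At the threshold there were 53 ORFs with quantile normalisation, 4 with edgeR and 9 among ORFs above 0 in all 4 libraries, and 0 Rab ORFs with either of the first 2. The last filter left no Rab ORF. Without shGm26917 replicate 1, Rab44 left the study's threshold and Rab6a and Rab21 entered it. Every Rab ORF is listed at 0 in shGm26917 replicate 1, so no change of a single Rab ORF was carried through the alternatives.

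With a replicate block, 0 Rab genes and 0 Rab ORFs were called and the Rab genes and ORFs at the study's threshold were 1 and 1. It moved no other count of calls by over 1.5 times. There were 2 libraries a group, 92.0% of ORFs were listed at 0 in shGm26917 replicate 1, and the depth under TE is not stated. Whether those zeros come from depth was not tested. The annotated ORFs above 0 in that library had a median of 238 reads, against 129 to 154 in the others. The cause of the moved counts was not tested.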
